A study of Mus musculus with 23 samples.

Results

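The genes described here are 36 genes of cholesterol and fatty acid synthesis in the mouse hippocampus, chosen by name as members of the SREBP pathway, of sterol synthesis and of fatty acid synthesis. All 36 were found among the 45706 gene identifiers of the count table. They are 5 regulators, 7 enzymes that lead from acetyl-CoA units to squalene, 10 enzymes that turn squalene into cholesterol, 2 genes of sterol turnover and transport, and 12 genes of fatty acid synthesis, elongation, desaturation and activation. RNA was sequenced from the dissected hippocampus of female mice, 12 with both copies of the insulin gene Ins2 (Ins2+/+, here WT) and 11 with neither (Ins2-/-, here KO). Each library is named by its genotype and its number in the labels, which do not say how many mice it holds, so p-values measure the spread between these libraries. Age, strain and how the deletion was made are not given in the sources used here, and the related mouse insulin gene Ins1 is not mentioned in the labels. The study's title places the comparison in the setting of brain-made insulin and memory in females, and insulin is known from other tissues as a stimulus of lipid synthesis genes.

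SREBF1 and SREBF2 encode the SREBP proteins, transcription factors made as membrane proteins of the endoplasmic reticulum. SCAP carries them to the Golgi, where proteases free their active part, and the INSIG proteins hold SCAP back when sterols are plentiful. The freed factors raise transcription of genes for sterol and fatty acid synthesis, among them most of the genes described here. The brain makes its own cholesterol, since lipoprotein cholesterol of the blood does not cross the blood-brain barrier. Oligodendrocytes, which build myelin, and astrocytes are its main sources in the adult.

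The promoter letters that SREBP and its usual partner factors are known to bind were looked up for these genes. RefSeq windows around the annotated start sites (GRCm38.p6) were at hand for 29 of the 36 genes, 37 windows in all. None was at hand for Fdps, Fdft1, Sqle, Stard4, Scd1, Scd2 and Fads1, so the shares below do not cover these genes. The classical SREBP element of sterol genes, TCACNCCAC on either strand, was in 1 of these windows (2.70%), against 1.24% of all 32851 windows, and that gene was Hmgcs1. The CCAAT box (CCAAT on either strand) was in 26 of the 37 windows (70.3%), against 37.4% of all. The GC box (GGGCGG on either strand) was in 27 of them (73.0%), against 35.7%, and the E-box CACGTG was in 7 (18.9%), against 7.15%. None of these letter strings contains another, but neighbouring matches can share letters at their edges. The E-box windows belonged to Dhcr7, Elovl5, Hsd17b7, Insig1, Sc5d and Scap. A match describes the reference sequence and is not evidence of a bound factor.

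The stretches before the start site of 4 genes are shown: Hmgcs1 for its SREBP element, Mvd and Ebp because they were among the 3 genes with the smallest genotype p-values, and Mvk because its level moved with that of Fdft1 over the libraries. The last 3 were picked after their values were seen. Each reads 5′ to 3′ along the gene and ends at the base before the RefSeq start, with the CCAAT box (CCAAT, or ATTGG where it lies on the other strand) and, in Hmgcs1, the SREBP element in capitals. Hmgcs1 lies at chr13:119690151-119690350 on the plus strand, Mvd at chr8:122443423-122443622 on the minus strand, Ebp at chrX:8193513-8193712 on the minus strand and Mvk at chr5:114444069-114444268 on the plus strand.
Hmgcs1: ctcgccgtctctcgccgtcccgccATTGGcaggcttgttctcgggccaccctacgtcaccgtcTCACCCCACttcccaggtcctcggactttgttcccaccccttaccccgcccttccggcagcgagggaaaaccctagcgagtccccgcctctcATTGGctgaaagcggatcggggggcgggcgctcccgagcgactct
Mvd: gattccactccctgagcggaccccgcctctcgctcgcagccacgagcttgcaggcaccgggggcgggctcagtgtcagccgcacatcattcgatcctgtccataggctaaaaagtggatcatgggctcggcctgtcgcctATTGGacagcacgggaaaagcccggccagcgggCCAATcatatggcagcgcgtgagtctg
Ebp: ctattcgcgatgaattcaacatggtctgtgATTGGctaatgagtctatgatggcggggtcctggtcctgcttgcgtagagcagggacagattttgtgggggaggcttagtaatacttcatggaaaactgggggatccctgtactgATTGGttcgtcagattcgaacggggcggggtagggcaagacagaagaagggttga
Mvk: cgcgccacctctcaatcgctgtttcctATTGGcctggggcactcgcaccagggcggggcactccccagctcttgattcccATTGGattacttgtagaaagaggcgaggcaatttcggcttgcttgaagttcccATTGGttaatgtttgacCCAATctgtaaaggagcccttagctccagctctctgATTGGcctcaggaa
In Hmgcs1 the SREBP element stood at bases -137 to -129 from the start, between CCAAT boxes at -176 to -172 and -45 to -41. Mvk held 5 CCAAT boxes in this stretch, and Mvd and Ebp each held 2.

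Libraries held 13792274 to 22953261 deposited counts, and levels are given as CPM, counts per 1000000 counts of the library, after edgeR's TMM scaling. Ins2 itself had 0 counts in all 11 KO libraries, which over the group allows up to 0.0156 CPM, and 26 counts in WT, found in 7 of 12 libraries with 18 of them in WT 17. All of the hippocampal marker genes looked up (7 of the dentate gyrus and 8 of the pyramidal fields CA1 and CA3) were detected. However, 6 libraries stood apart from the other 17. In KO 8 the dentate gyrus markers summed to 66.3 CPM, against 253 to 576 in the 17, and 11 hypothalamus markers summed to 1568 CPM, against 5.05 to 23.5. In WT 14, WT 17, KO 2, KO 6 and KO 12 the 10 choroid plexus markers summed to 3282 to 21016 CPM, against 33.2 to 108 in the 17. Genotype results are given over all 23 libraries first and then over these 17. In whole tissue, fewer cells of a type and less RNA per cell cannot be told apart.

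Every one of the 36 genes was expressed at a measurable level, from 48 to 519 counts per library for Acacb up to 18349 to 38341 for Scd2. Per kilobase of annotated exon, Scd2, a desaturase that makes monounsaturated fatty acids, was the highest at 272 CPM per kb averaged over the 23 libraries. Hmgcs1, Acsl3 and Fads1 followed at 49.8, 47.1 and 46.8 CPM per kb. Fasn, which builds palmitate, stood at 29.2 CPM per kb and Cyp46a1, the neuronal enzyme that hydroxylates cholesterol for export, at 34.0. The sterol enzymes after squalene had lower levels per length, from 2.78 for Tm7sf2 to 13.8 for Cyp51. Acacb, the form of acetyl-CoA carboxylase that sits at mitochondria, was the lowest at 1.0 CPM per kb. Within genotype and over the 17 libraries, the median SD of the 36 genes was 0.12 on the log2 scale, against 0.17 over all genes tested.

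No gene of the 36 passed the genotype test, edgeR's quasi-likelihood test on 12 WT and 11 KO libraries with Benjamini-Hochberg adjustment over all 15828 genes tested. The background was low too, since 0.0126% of all genes tested (2 genes) had an adjusted p below 0.05. Adjusted p-values of the 36 ran from 0.781 to 0.994. The unadjusted p was below 0.05 in 3 of 36 genes, Fdft1, Mvd and Ebp, all higher in KO, against 5.74% of all genes in either direction and 3.41% of all genes higher in KO. DESeq2 called none of the 36, against 0.0253% of all genes, and had 4 below the unadjusted threshold, against 6.17% of all genes. Limma voom with library quality weights also called none, against 0.0316%, and had 9 below it, against 17.4% of all genes. With the oligodendrocyte marker mean as a covariate 5 were below it, against 8.98%.

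Fold changes were small. The estimate was above 0, meaning higher in KO, for 28 of the 36 genes, against 51.0% of all genes tested. The median log2 fold change was 0.04 over the 36 genes and 0.00 over all genes (0.003). It was 0.11 over the 7 enzymes from acetyl-CoA units to squalene, 0.02 over the 10 enzymes after squalene, 0.03 over the 12 fatty acid genes and -0.02 over the 5 regulators. KO 8 weighed on these numbers. Without it these group medians were 0.09, 0.0041, -0.00099 and -0.02, so that of the fatty acid genes changed sign. The median over the 36 genes was then 0.01, 21 of 36 estimates were above 0, against 51.6% of all genes, and the same 3 genes, Fdft1, Mvd and Ebp, had an unadjusted p below 0.05, against 4.11% of all genes. Over the 17 libraries, the median was again 0.01 and 21 of 36 were above 0, against 47.3% of all genes. The group medians were 0.10, 0.02, near 0 and -0.05, and 0 of 36 were called, with 0.0125% of all genes called.

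Cell type markers stood beside these estimates as follows, none of them called. All 7 dentate gyrus markers had estimates below 0, with a median log2 fold change of -0.38 over all libraries, -0.26 without KO 8 and -0.35 over the 17. They summed to 310 to 576 CPM in WT and 66.3 to 535 CPM in KO. The 10 oligodendrocyte markers had 0 estimates above 0 over all libraries (median -0.08) and 7 over the 17 (median 0.0095), with sums of 4129 to 8624 CPM in WT and 3632 to 8976 CPM in KO. Of the 7 choroid plexus markers tested, 7 were above 0 over all libraries (median 0.23) and 2 over the 17 (median -0.15), and the list summed to 45.6 to 21016 CPM in WT and 33.2 to 14431 CPM in KO. The 8 markers of CA1 and CA3 had a median of -0.15 over all libraries, -0.02 without KO 8 and -0.16 over the 17. The 7 endothelium markers had 5 estimates above 0 over all libraries (median 0.06) and 0 over the 17 (median -0.19), and the 2 hypothalamus markers tested had a median of 0.92 over all libraries and 0.06 over the 17. The medians of the other 4 lists, neurons, oligodendrocyte precursors, astrocytes and microglia, lay between -0.02 and 0.04 in each of these sets. The part of these markers in the estimates of the 36 genes was not tested, beyond the fits with the oligodendrocyte or the choroid plexus mean as a covariate, where 27 and 26 of 36 estimates were above 0.

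**Figure D1:**
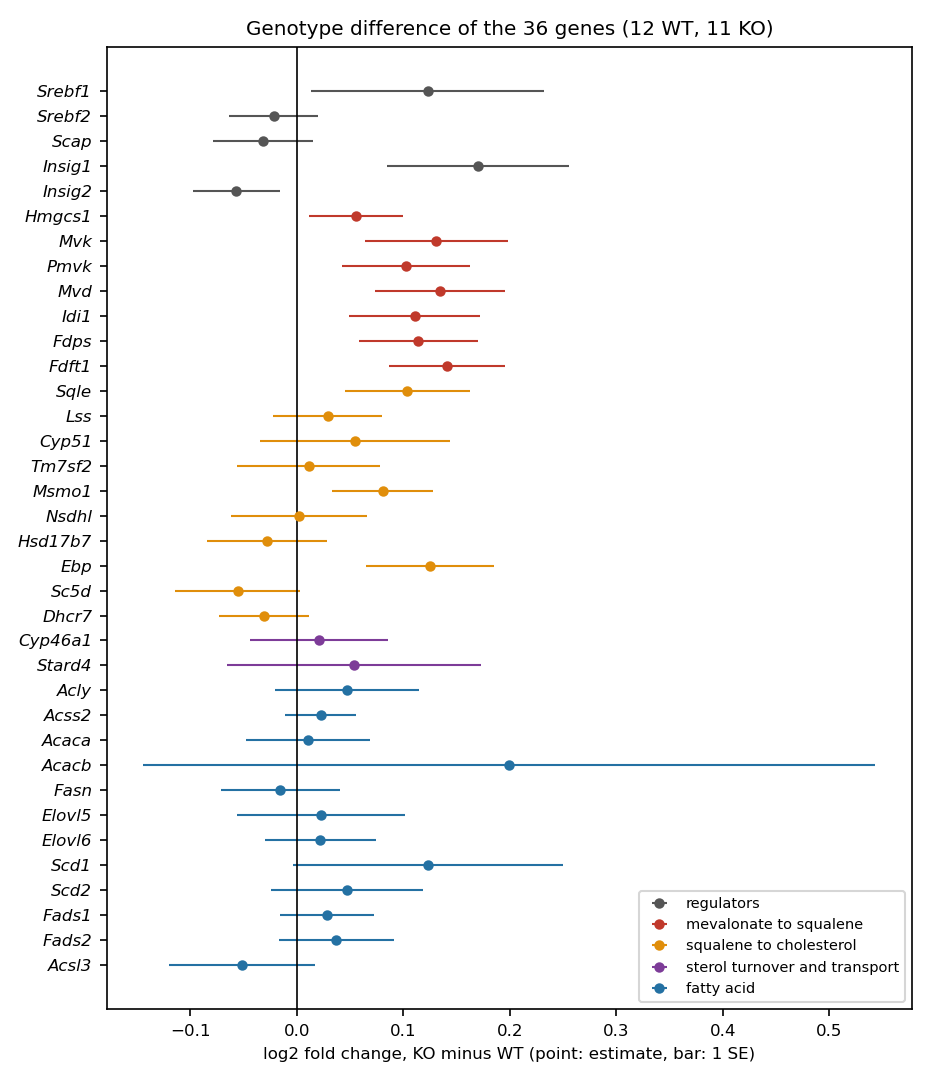
Estimated log2 fold change, KO minus WT, of each of the 36 genes (points) with 1 standard error on each side (bars), from 12 WT and 11 KO libraries, coloured by role. All 7 enzymes from acetyl-CoA units to squalene lie to the right of 0, no gene passed the adjusted test, and the bar of Acacb (SE 0.34) is the widest.

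The regulators showed no shift in common. Srebf2, the main driver of sterol genes, had 177 CPM as its lowest WT value, 197 as its median and 227 as its highest, and in KO 171, 198 and 212. The ranges lay nearly on top of each other, and the log2 fold change was -0.02 (SE 0.042, unadjusted p = 0.607), or -0.06 over the 17 libraries. Srebf1, whose product favours fatty acid genes, had 47.0, 57.2 and 81.5 CPM in WT and 49.4, 60.8 and 88.8 in KO. Its highest KO value was that of KO 8 and its highest WT value that of WT 17, and the log2 fold change was 0.12 (SE 0.11, unadjusted p = 0.272). Over the 17 libraries it was 0.01. The exons of Srebf1 overlap Rai1 on the opposite strand.

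Scap had 79.1, 89.0 and 103 CPM in WT and 75.9, 87.7 and 97.1 in KO, with a log2 fold change of -0.03, or -0.09 over the 17 libraries. Insig1, which holds SCAP back and is itself a classical SREBP target, had 54.6, 61.9 and 76.2 CPM in WT and 56.9, 65.9 and 105 in KO. Of the 11 KO libraries 8 lay above the WT median and 2 above the highest WT value, the highest of all being KO 8. The log2 fold change of Insig1 was 0.17 (SE 0.085, unadjusted p = 0.0574) and 0.10 without KO 8. Insig2, its relative with a similar role, differed by -0.06 (SE 0.041), or -0.05 over the 17 libraries.

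The enzymes from acetyl-CoA units to squalene had all 7 estimates above 0, from 0.06 to 0.14, and did so in each of the 33 fits that were run, in which 46.6% to 55.2% of all genes were above 0. The fits share most of their libraries, so they are not independent of each other. None of the 7 was called in any of those fits. Fdft1, squalene synthase, catalyses the step that commits the pathway to sterols. Its lowest, median and highest levels were 60.5, 63.4 and 68.6 CPM in WT and 58.7, 71.2 and 93.1 CPM in KO. The groups overlapped, but 6 of 11 KO libraries lay above the highest WT library and 9 above the WT median. The log2 fold change was 0.14 (SE 0.055, unadjusted p = 0.0166, adjusted p = 0.781). Without KO 8, the highest library, it was 0.10. The unadjusted p stayed between 0.00314 and 0.0330 over the 33 fits and the adjusted p between 0.156 and 0.967. Exons of Fdft1 overlap those of Ctsb, a lysosomal protease gene on the opposite strand, whose own log2 fold change was 0.07 (SE 0.054, unadjusted p = 0.226). Ctsb averaged 431 CPM and had r = 0.59 with Fdft1 over the 17 libraries. It is not stated whether strand was used in counting, so the Fdft1 counts are less certain. The share of Ctsb in them was not tested.

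Mvd, which decarboxylates mevalonate diphosphate to the isoprene unit, was the other member of this group under the unadjusted threshold. Its levels were 12.2, 14.3 and 16.4 CPM in WT and 13.3, 15.8 and 18.3 CPM in KO. KO lay above the WT median in 9 of 11 libraries, while most of the ranges overlapped, and the log2 fold change was 0.13 (SE 0.061, unadjusted p = 0.0378, adjusted p = 0.781). Over the 17 libraries it was 0.10 with an unadjusted p of 0.141. Its unadjusted p was below 0.05 in 23 of the 33 fits.

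Hmgcs1, the synthase that makes HMG-CoA, had 208, 224 and 250 CPM in WT and 203, 234 and 258 in KO. Its KO libraries spread on both sides of the WT range, with a log2 fold change of 0.06 (SE 0.044, unadjusted p = 0.221). Fdps, which joins isoprene units to farnesyl diphosphate, had 36.7, 42.9 and 52.4 CPM in WT and 40.0, 48.2 and 56.3 in KO. Of its KO libraries 10 of 11 exceeded the WT median but only 1 exceeded the WT maximum, and the log2 fold change was 0.11 (SE 0.056, unadjusted p = 0.0525), or 0.10 over the 17 libraries. The mevalonate kinases Mvk and Pmvk differed by 0.13 (SE 0.067) and 0.10 (SE 0.060). These were 0.08 and 0.02 over the 17 libraries, and without KO 8 Pmvk was at 0.06. Idi1, the isomerase of the isoprene unit, differed by 0.11 (SE 0.061) over all libraries, and over the 17 it had the smallest p of the 36 genes (log2 fold change 0.18, SE 0.051, unadjusted p = 0.00286, adjusted p = 0.506). Fdps and Idi1 share near-identical sequence with pseudogenes, of which Gm13502, like Idi1 over 684 bases, averaged 1.61 CPM.

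Among the 5 genes with an unadjusted p below 0.05 over the 17 libraries (background 8.05% of 15951 genes), Idi1 was joined by Msmo1, Fdft1, Insig1 and Hmgcs1, again all higher in KO. Their log2 fold changes were 0.13 for Msmo1 (unadjusted p = 0.0245), 0.10 for Fdft1 (p = 0.0330), 0.16 for Insig1 (p = 0.0374) and 0.09 for Hmgcs1 (p = 0.0420). These are 10 WT and 7 KO libraries chosen with their marker values known. Only Fdft1 was below the unadjusted threshold both in this set and over all 23 libraries.

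**Figure D2:**
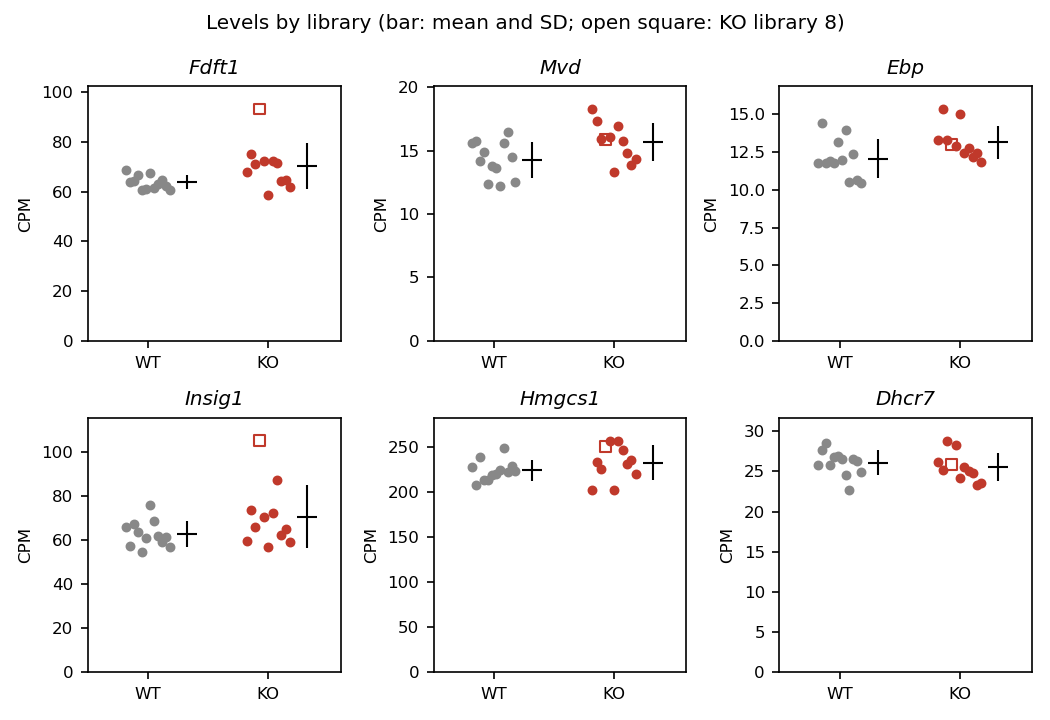
CPM of 6 genes in each of 12 WT and 11 KO libraries (dots), with the mean and SD of each genotype as a cross and KO 8 as an open square; every axis starts at 0. KO 8 lies above all other libraries in Fdft1 (93.1 CPM) and Insig1 (105 CPM) and within the range in Mvd, Ebp, Hmgcs1 and Dhcr7, and the genotypes overlap in all 6 genes.

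Of the 10 enzymes after squalene, 7 had estimates above 0, against 51.0% of all genes. Sqle, the epoxidase that is a rate-controlling step, had 50.4, 54.8 and 61.0 CPM in WT and 50.0, 59.6 and 79.6 in KO, the last being KO 8. Most KO libraries lay inside the WT range, and the log2 fold change was 0.10 (SE 0.058, unadjusted p = 0.0887), or 0.06 without KO 8 and 0.08 over the 17 libraries. Ebp, the isomerase that moves the ring double bond, had 10.4, 11.9 and 14.4 CPM in WT and 11.9, 12.9 and 15.4 in KO. All 11 KO libraries stood above the WT median, and 6 of 12 WT libraries lay below the lowest KO library. The log2 fold change of Ebp was 0.13 (SE 0.060, unadjusted p = 0.0486, adjusted p = 0.781). It was 0.13 over the 17 libraries as well, with an unadjusted p of 0.0782.

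Msmo1, which oxidises the methyl groups of lanosterol derivatives, differed by 0.08 (SE 0.048), and Cyp51, the lanosterol demethylase, by 0.05 (SE 0.089). Lss, which closes the sterol rings, differed by 0.03, Tm7sf2, a sterol reductase, by 0.01, and Nsdhl, a sterol dehydrogenase, by 0.00 (0.002). The estimates of Hsd17b7 and Sc5d, a keto reductase and a desaturase of late sterols, were -0.03 and -0.06. The estimates over the 17 libraries were 0.06 for Cyp51, -0.02 for Lss, -0.0076 for Tm7sf2, -0.09 for Nsdhl, 0.05 for Hsd17b7 and -0.06 for Sc5d, so 4 of these 6 changed sign. The exons of Cyp51 overlap those of Akap9 on the other strand and those of Tm7sf2 overlap Vps51 on the same strand, so their counts are less certain.

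Dhcr7, the reductase of the last step, is the gene of this set that lies close to the deletion. It is at chr7:143823145-143848410 on the plus strand (GENCODE M21, GRCm38), 1.08 Mb from Ins2. Levels of Dhcr7 were 22.7, 26.4 and 28.6 CPM in WT and 23.3, 25.1 and 28.8 CPM in KO. The ranges matched closely, with the KO median slightly under that of WT. The log2 fold change was -0.03 (SE 0.042, unadjusted p = 0.467, adjusted p = 0.865), and it stayed between -0.06 and -0.02 when single libraries were left out. Over the 17 libraries it was -0.06 (SE 0.049, unadjusted p = 0.226).

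Cyp46a1 had 80.9, 111 and 128 CPM in WT and 87.6, 113 and 131 in KO, a log2 fold change of 0.02 (SE 0.065), or 0.03 over the 17 libraries. It was among the few genes of the set that were low in KO 8, at 87.6 CPM against 103 to 128 in the 17 libraries. Stard4, which moves sterol between membranes, differed by 0.05 (SE 0.12), or -0.03 over the 17 libraries, and was highest in KO 8, at 45.7 CPM against 34.1 or less in all others.

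Among fatty acid genes no unadjusted p was below 0.05. Acaca, the cytosolic acetyl-CoA carboxylase, had 71.7, 89.99 and 99.3 CPM in WT and 75.4, 87.3 and 116 in KO. Fasn had 282, 327 and 358 CPM in WT and 271, 327 and 370 in KO. For both genes the medians nearly coincided and the highest library was KO 8. Log2 fold changes were 0.01 (SE 0.058) for Acaca and -0.02 (SE 0.056) for Fasn, and over the 17 libraries -0.06 and -0.08. Acaca shares 99.2% identity over 6118 bases with the processed pseudogene Gm5182, which makes its counts less certain.

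Scd2 had 1273, 1436 and 1722 CPM in WT and 1252, 1491 and 2047 in KO, with a log2 fold change of 0.05 (SE 0.071). Scd1, the other desaturase, had 117, 144 and 197 CPM in WT and 106, 163 and 293 in KO, with a log2 fold change of 0.12 (SE 0.13). In both the highest value was that of KO 8, and without it the log2 fold changes were 0.00 (0.0043 for Scd1 and 0.00089 for Scd2). They were 0.01 in both genes over the 17 libraries. Acacb had 4.83, 7.2 and 29.6 CPM in WT and 3.27, 7.19 and 30.8 in KO. Its coefficient of variation was 74.5% in WT and 25.4% without WT 17, the other 11 WT libraries lying between 4.83 and 10.7 CPM. The log2 fold change was 0.20 (SE 0.34) over all libraries and -0.12 (SE 0.16) over the 17. Acly and Acss2, which supply acetyl-CoA from citrate and from acetate, the elongases Elovl5 and Elovl6, the desaturases Fads1 and Fads2 and the acyl-CoA synthetase Acsl3 had estimates from -0.05 to 0.05. These ran over the 17 libraries from -0.04 for Fads2 to 0.03 for Elovl6. Acss2 overlaps exons of Ggt7 on the opposite strand, which averaged 101 CPM and had r = 0.71 with it over the 17 libraries, and Acsl3 overlaps Utp14b on the same strand (r = 0.67), so their counts are less certain too.

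Other genes of the pathway, 59 in 5 lists, were looked up beside these 36, and 57 were tested. None was called, 29 of 57 estimates were above 0 and the median log2 fold change was 0.00 (0.0007). At an unadjusted p below 0.05, 3 were higher and 1 was lower in KO, a share near that of all genes (5.74% in either direction, 3.41% higher in KO). The higher ones were Acat2, which condenses acetyl-CoA ahead of Hmgcs1, at 0.16 (SE 0.065, p = 0.0237), Nr1h2, the sterol receptor LXR-beta, at 0.10 (SE 0.040, p = 0.0252), and Tecr, an enzyme of fatty acid elongation, at 0.14 (SE 0.063, p = 0.0415). The lower one was Thrsp, a lipogenic protein, at -0.25 (SE 0.11, p = 0.0300). Acat2 and Tecr had their highest value, and Thrsp its lowest, in KO 8. In the other 2 lists the smallest p belonged to Mbtps2, a protease that frees SREBP, at -0.11 (SE 0.063, p = 0.102), and to the oxysterol enzyme Cyp7b1, at -0.25 (SE 0.12, p = 0.0572). Both of these were also lowest in KO 8.

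KO 8, the library with hypothalamus markers, was the highest of all 23 libraries in 19 of the 36 genes, against 22.1% of all genes tested. It was the lowest in 2, Hsd17b7 and Acss2, against 23.7% of all genes. Its median distance from the 17 libraries was 0.26 on the log2 scale over the 36 genes and 0.01 over all genes. The distance was largest in Scd1 (1.01 on the log2 scale, 293 CPM against 106 to 197 in the 17), Stard4 (0.81), Insig1 (0.73), Srebf1 (0.63) and Cyp51 (0.62). The fatty acid genes were highest in KO 8 in 8 of 12 cases and the 17 sterol enzymes in 8 of 17. Prox1, a dentate granule cell gene, stood at 36.5 CPM in KO 8 against 86.7 to 196 in the 17, while Mbp, a myelin gene, was inside their range at 1938 CPM. This is 1 library, so the difference has no replicate check.

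Among the 36 genes, Acacb alone had all 5 libraries high in choroid plexus markers above all of the 17. Its levels were 10.3 to 30.8 CPM in these 5 and 3.27 to 9.15 CPM in the 17. Of all genes tested 1.84% had all 5 above the 17, and 0.379% had all 5 below, as none of the 36 did. The median of the 5 minus that of the 17 was 0.43 on the log2 scale for Srebf1 and -0.33 for Acsl3, with overlap. The 7 endothelium markers also set these libraries apart, at a sum of 146 to 167 CPM against 68.4 to 130 CPM in the 17, and the part of either cell type in the Acacb level was not tested. Since 2 of these libraries are WT and 3 are KO, the marker level and the genotype are not the same split.

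**Figure D3:**
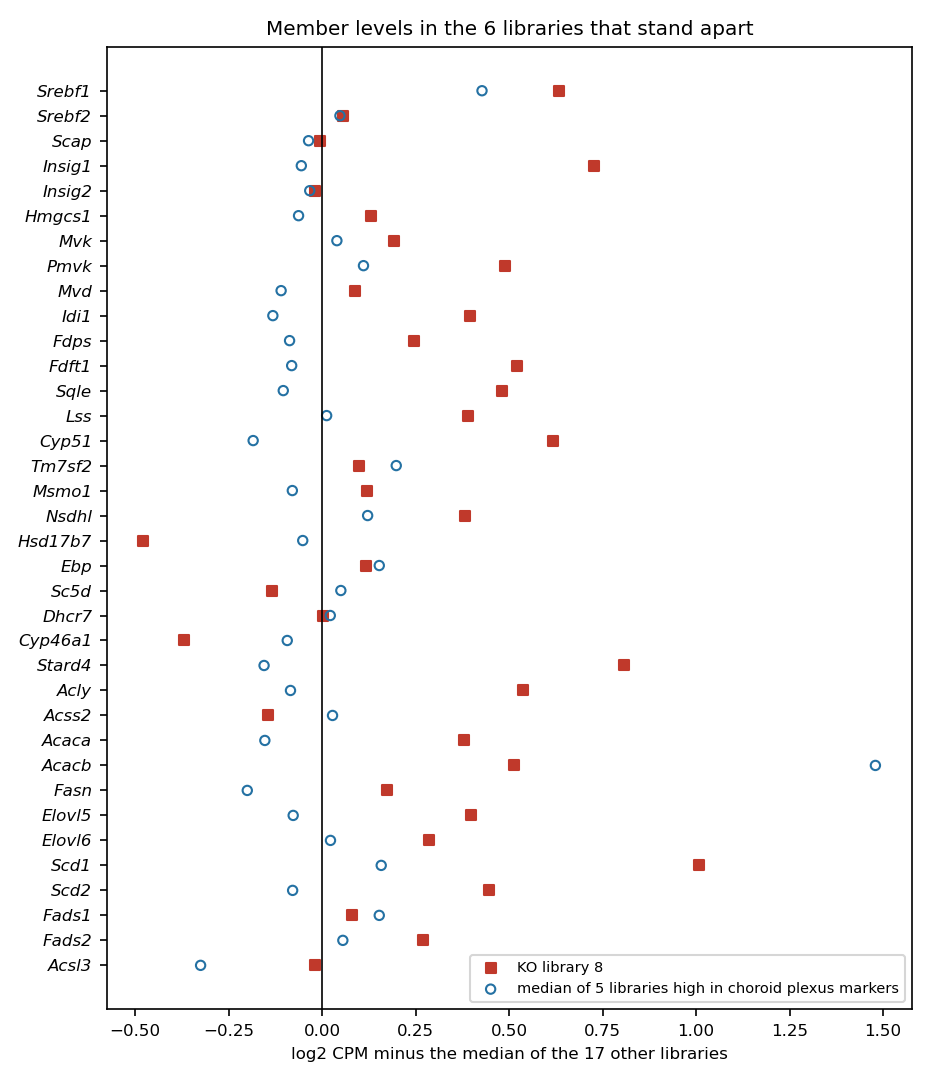
Log2 CPM of each of the 36 genes in KO 8 (squares) and, as a median, in the 5 libraries high in choroid plexus markers (circles), minus the median of the 17 other libraries. KO 8 lies to the right of 0 for most genes, by 1.01 for Scd1, while the 5 libraries lie between -0.20 and 0.20 except for Acacb (1.48), Srebf1 (0.43) and Acsl3 (-0.33).

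How the genes moved with each other over libraries was examined in the 17 libraries that stand together, 10 WT and 7 KO, on log2 CPM with each genotype's mean subtracted. All points of a correlation share their library, its depth and its mix of cells. Over the 630 pairs of the 36 genes the median Pearson r was 0.11, against -0.001 over all 125254878 pairs of tested genes. An r of at least 0.6 was found in 50 pairs (7.94%), against 3.89% of all gene pairs. The 17 sterol enzymes did not move as one block, with a median r of 0.19 over 136 pairs. Within the 7 enzymes up to squalene the median r was 0.47 and all 21 pairs were positive, against 49.8% of all gene pairs. Within the 10 enzymes after squalene the median r was 0.04 with 26 of 45 pairs positive (57.8%), nearer to that share. The median r was 0.18 over the 66 pairs of fatty acid genes and 0.10 over the 204 pairs of a sterol enzyme with a fatty acid gene.

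**Figure D4:**
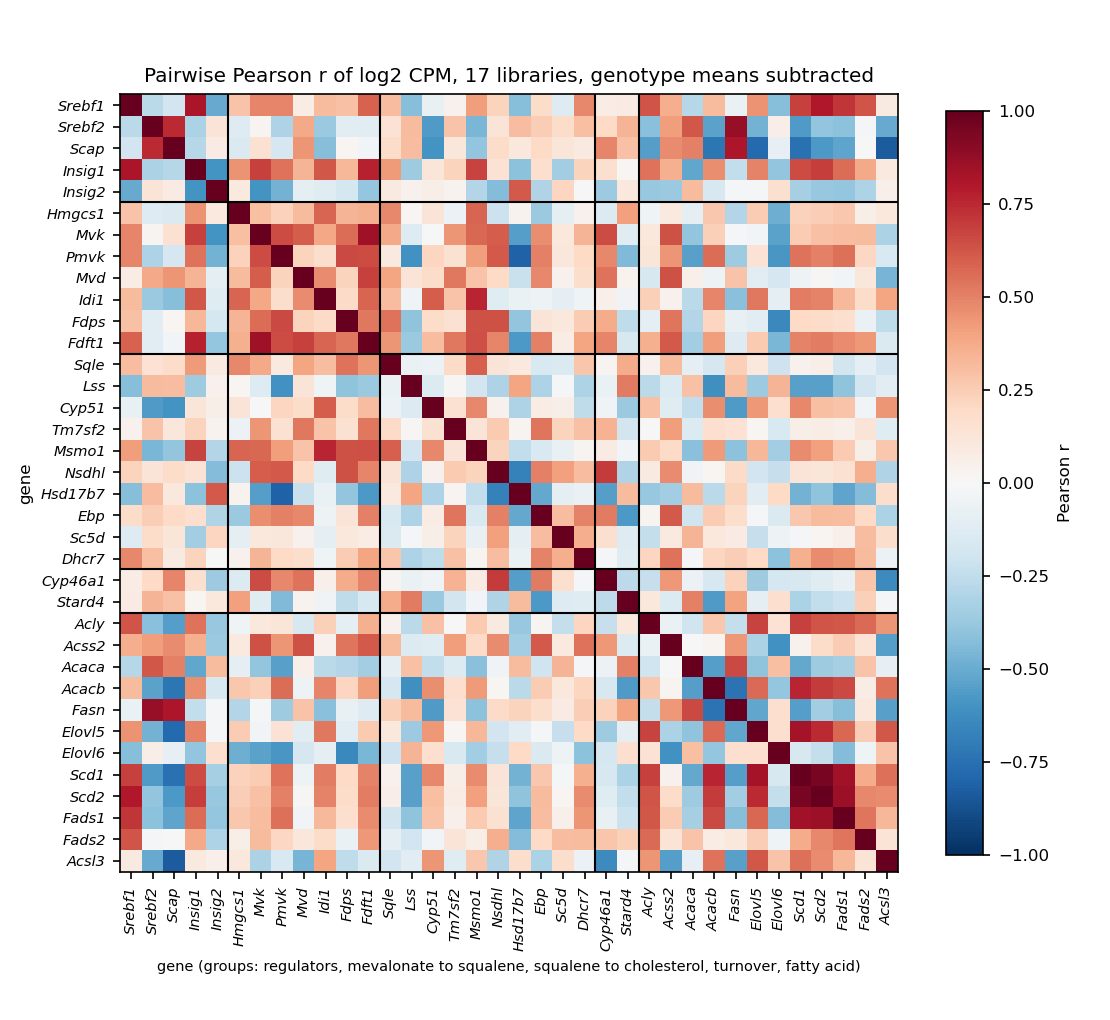
Pearson r for each pair of the 36 genes over 17 libraries (10 WT, 7 KO; log2 CPM with genotype means subtracted), ordered by role with black lines between groups; red is positive and blue negative. The block from Hmgcs1 to Fdft1 is red throughout (21 of 21 pairs, against 49.8% of all gene pairs with r above 0). The darkest blue cell outside this block joins Scap and Acsl3 (r = -0.83).

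Permutation within genotype (100000 resamples, two-sided, so that 1e-05 is the smallest p it can give) left 20 of the 630 pairs with an adjusted p below 0.05 over the 630 pairs computed. Of these 14 were positive and 6 negative. By role, 3 were among the 136 pairs of sterol enzymes and 7 among the 66 pairs of fatty acid genes. The permutation was not run on all gene pairs, so whether 20 is more than other genes would give was not tested. Without a test, an r of at least 0.6 was found in 7.94% of the 630 pairs and in 3.89% of all gene pairs. The leading sterol pair was Mvk and Fdft1, an early and the last enzyme of the squalene branch, with r = 0.85 (permutation p = 1e-05, adjusted p = 0.0021) and rho = 0.79 (adjusted p = 0.0115). It was 0.84 without the 2 libraries farthest from the median of Mvk, and 0.60 over all 23 libraries. Idi1 and Msmo1 had r = 0.76 (permutation p = 0.00117, adjusted p = 0.0405) and rho = 0.74 (adjusted p = 0.0918), and r was 0.54 without KO 13 and KO 16. The sterol pair that ran in opposite directions was Pmvk and Hsd17b7, with r = -0.80 (permutation p = 0.00017, adjusted p = 0.0107) and rho = -0.69 (adjusted p = 0.111). These pairs were picked out by their p-values after the values were seen.

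Regulators paired with enzymes of either branch. Srebf1 and Insig1 had r = 0.82 (permutation p = 9e-05, adjusted p = 0.00945) and rho = 0.74 (adjusted p = 0.0483), or r = 0.67 without WT 15 and KO 16. Insig1 also moved with Fdft1, with r = 0.77 (permutation p = 0.00062, adjusted p = 0.03) and rho = 0.83 (adjusted p = 0.0151). Srebf2 and Fasn had r = 0.87 (permutation p = 1e-05, adjusted p = 0.0021) and rho = 0.90 (adjusted p = 0.0021), and Scap and Fasn had r = 0.81 (permutation p = 0.00016, adjusted p = 0.0107) and rho = 0.88 (adjusted p = 0.0021). Without the 2 farthest libraries these were 0.88 and 0.87. With single sterol enzymes Srebf2 had r from -0.57 for Cyp51 and -0.46 for Msmo1 to 0.32 for Lss and 0.38 for Mvd. Scap ran against Acsl3, with r = -0.83 (permutation p = 0.00014, adjusted p = 0.0107) and rho = -0.79 (adjusted p = 0.0257).

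The tightest pair of all was Scd1 and Scd2, with r = 0.95 (permutation p = 1e-05, adjusted p = 0.0021), rho = 0.93 (adjusted p = 0.0021) and 0.91 without KO 22 and WT 15. Transcripts of these neighbouring genes are 95.5% identical over 623 bases, so reads from one may in part be counted for the other, and that share was not tested. Fads1, on the same chromosome, moved with Scd2 at r = 0.85 (permutation p = 2e-05, adjusted p = 0.00315) and rho = 0.84 (adjusted p = 0.00787). That r was 0.44 over all 23 libraries and 0.53 with the first component of all genes regressed out.

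The genes were also set against glial markers. Against the mean of 10 oligodendrocyte markers, 7 of the 36 genes correlated positively and 2 negatively by Pearson r. The threshold was an adjusted p below 0.05 over the 15818 genes tested outside the list, of which 11.2% passed positively and 13.3% negatively. In both directions together, the share among the 36 genes was near that of all genes. Scd2 had r = 0.93 (permutation p = 1e-05, adjusted p = 0.000709), rho = 0.93 (adjusted p = 0.00158) and r = 0.90 without KO 22 and WT 20, the libraries farthest from the median of the marker mean. Scd1 had r = 0.92 (permutation p = 1e-05, adjusted p = 0.000709), rho = 0.94 (adjusted p = 0.00115) and r = 0.88 without them. Both desaturases were high in the libraries where the myelin genes were high. With the first principal component of all genes regressed out, r was 0.67 for Scd2 and 0.44 for Scd1, and over all 23 libraries it was 0.62 and 0.52.

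Fads1 had r = 0.76 with the same mean, and 0.68 without KO 22 and WT 20, but 0.11 with the first component regressed out and 0.43 over all 23 libraries. Srebf1 had r = 0.73, and 0.71 without them, but 0.32 with that component regressed out and 0.40 over all 23 libraries. Elovl5 had r = 0.70, and 0.71 without them, while Insig1 had r = 0.66, and 0.60 without them. Acacb had r = 0.76 but 0.47 without them. The negative ones were Scap, with r = -0.61, or -0.48 without them, and Lss, with r = -0.66. The relation of Lss rests on those 2 libraries, since its r was -0.14 without them. By rank, Insig1, Scap and Lss did not pass, with an adjusted permutation p of rho of 0.102, 0.093 and 0.172. The other genes that passed by r also passed by rank. Of the 12 fatty acid genes 5 passed, all with a positive r, against 11.2% of all genes. Among the 7 that did not, r was -0.56 for Acaca, -0.48 for Fasn and -0.35 for Elovl6, and without KO 22 and WT 20 these were -0.58, -0.20 and -0.04. The other 4 had r of 0.46 for Acly, 0.42 for Acsl3, 0.24 for Fads2 and 0.13 for Acss2.

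Against the mean of 10 astrocyte markers, 4 genes correlated positively and 1 negatively by Pearson r, against 4.04% and 3.58% of genes. Acacb was the closest, with r = 0.92 (permutation p = 2e-05, adjusted p = 0.0167), rho = 0.84 (adjusted p = 0.0762) and r = 0.84 without KO 22 and WT 20. Over all 23 libraries, which include those high in choroid plexus markers, its r was 0.21. Scd1, Scd2 and Fads1 had r of 0.81, 0.78 and 0.74 with the astrocyte mean, and Scap had r = -0.70.

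Means over the genes give a coarser view. In such a mean the genes with the widest spread count most, among them Acacb and Scd1 with an SD of 0.36 and 0.24 on the log2 scale. The mean of the 12 fatty acid genes had r = 0.82 with the oligodendrocyte markers, 0.92 with those of oligodendrocyte precursors, 0.85 with those of astrocytes and 0.76 with those of microglia. The mean of the 17 sterol enzymes had r of 0.36, 0.35, 0.37 and 0.38 with the same lists, and 0.18 with the neuron markers. With the choroid plexus markers, low in all 17 libraries, r was 0.82 for the fatty acid mean and 0.48 for the sterol mean, and with the dentate gyrus markers it was -0.55 and -0.31. The size of r with the first principal component of all genes, which held 22.3% of the variance, was 0.86 for the fatty acid mean and 0.38 for the sterol mean. With the library total on the log2 scale r was 0.59 for the fatty acid mean and 0.12 for the sterol mean. The part of depth and of cell mix in these correlations was not tested further, and the difference between the means was not tested.

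**Figure D5:**
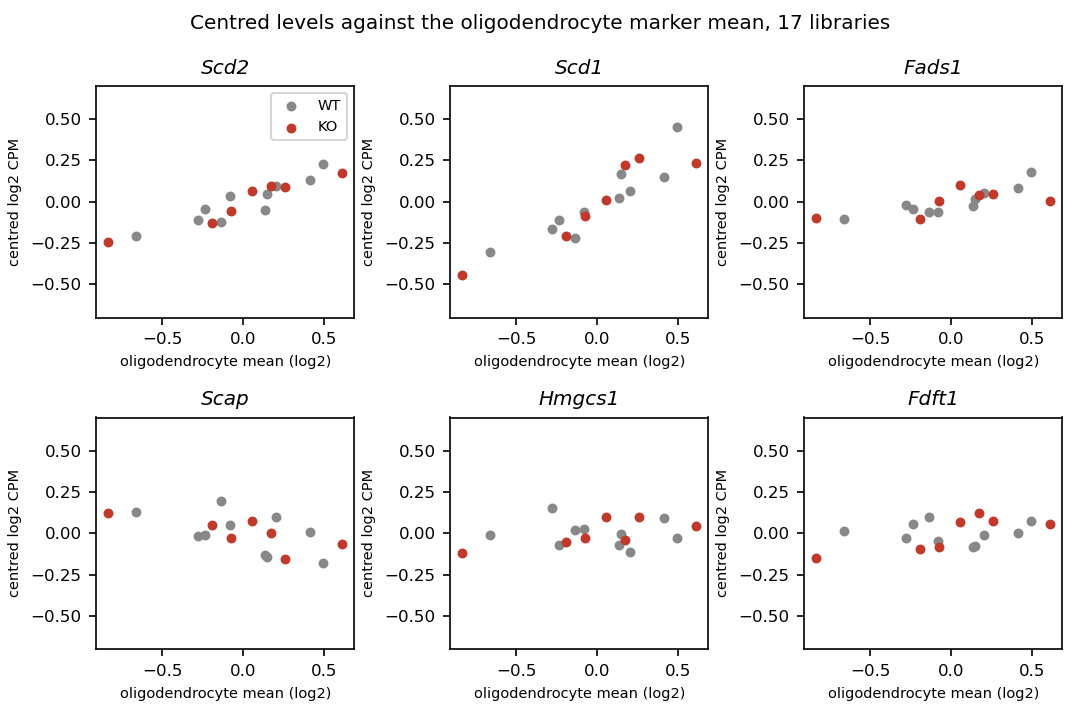
Log2 CPM of 6 genes against the mean of 10 oligodendrocyte markers, both with genotype means subtracted, in 10 WT (grey) and 7 KO (red) libraries. Scd2 (r = 0.93) and Scd1 (r = 0.92) follow the markers. Scap is shown as a gene with a negative r (-0.61) that passed by r but not by rank. Hmgcs1 (r = 0.27) and Fdft1 (r = 0.45) are shown as genes that did not pass the test.

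Outside the set, the genes whose level was most like the mean of the 17 sterol enzymes over the 17 libraries, among genes of at least 10 CPM, were Dbnl (r = 0.82), Bckdk (0.80), Rela (0.78), Prpf19 (0.78) and Uap1l1 (0.78). Of all genes tested, 1.52% had an r of at least 0.6 with that mean. Of the 57 other pathway genes 1 did, Acat2.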

How the data were processed

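RNA of 23 hippocampus libraries was prepared with a stranded mRNA kit, per the labels' protocols. The deposited table holds estimated counts per Ensembl gene for 45706 genes, made by the authors from reads processed with bcl2fastq and STAR on mm10, per the submitters' processing notes. The counting program, annotation and use of strand are not given in the sources used here. Of the 36 genes 14 had some counts that were not whole, and all counts were rounded. No column was left out, and 45143 identifiers matched a symbol and position in GENCODE M21.

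Genotypes were compared with edgeR 4.0.16 (TMM, filterByExpr, robust quasi-likelihood test) in R 4.3.3 over 15828 genes, with Benjamini-Hochberg adjustment and a threshold of 0.05. The coefficient of biological variation was 22.9%. No pair of libraries of 1 genotype differed by less than sampling noise (lowest chi-square per degree of freedom 6.90). For correlations, log2 CPM (prior count 2) was centred by genotype, with permutation within genotype. Near-identical transcripts were sought with blastn 2.17.0 (at least 90% identity over 300 bases). Alternatives were DESeq2 1.42.0, limma 3.58.1, sva 3.50.0, other filters, covariates and library sets. The scripts were tested on simulated data.

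The 36 genes, the lists and the 17 libraries were chosen with earlier results of these data known. Full values are given for genes with an unadjusted p below 0.05, for landmarks of each branch and for the highest and lowest gene per length. The other pathway genes named are those below that threshold and the smallest p of each list.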

Additional observations from a re-analysis of the deposited data

How the results depend on the processing

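The count of called genes was 0 of 36 under each of the 33 fits and at an adjusted p below 0.1, the smallest adjusted p of a member in any fit being 0.156. At an unadjusted p below 0.05, where 3 genes stood, there were 9 with limma voom, 5 over the 17 libraries and 5 with the oligodendrocyte mean as a covariate. Leaving out single libraries gave 1 to 7, with 1 without WT 11, KO 4 or KO 9, 7 without KO 12 or KO 22 and 5 without KO 18 or KO 21. The share of all genes below the threshold moved as well, being 4.11% without WT 11, 4.63% without KO 4, 5.82% without KO 9, 6.64% without KO 12, 11.3% without KO 22, 6.61% without KO 18 and 5.67% without KO 21. When single libraries were left out, the median log2 fold change over the 36 genes ran from 0.01 (without KO 8) to 0.06. Of 1152 alternative values for single genes 1095 kept their direction, and those that did not belong to 17 genes, none of them called. With limma voom the estimates that changed sign were -0.027 for Lss, -0.0052 for Tm7sf2, -0.033 for Nsdhl, -0.025 for Stard4, -0.042 for Acaca and -0.0102 for Elovl6. Over the 17 libraries they were -0.019 for Lss, -0.0076 for Tm7sf2, -0.086 for Nsdhl, 0.045 for Hsd17b7, -0.028 for Stard4, -0.0085 for Acly, -0.056 for Acaca, -0.12 for Acacb, -0.014 for Fads1, -0.043 for Fads2 and 0.0098 for Acsl3. With the choroid plexus mean as a covariate they were -0.000609 for Tm7sf2 and -0.00484 for Nsdhl, and with the oligodendrocyte mean -0.00159 for Nsdhl. With 1 surrogate variable they were -0.011 for Tm7sf2, -0.026 for Nsdhl, -0.15 for Acacb, 0.0059 for Fasn and -0.0025 for Fads1. Leaving out single libraries, the ranges that crossed 0 were -0.011 to 0.061 for Elovl5, -0.034 to 0.0035 for Fasn, -0.027 to 0.039 for Tm7sf2, -0.028 to 0.021 for Nsdhl, -0.029 to 0.027 for Acaca, -0.0091 to 0.058 for Cyp46a1, -0.041 to 0.00026 for Srebf2, -0.0047 to 0.045 for Lss, -0.0092 to 0.077 for Cyp51, -0.048 to 0.013 for Hsd17b7, -0.039 to 0.10 for Stard4, -0.0062 to 0.088 for Acly, -0.0029 to 0.042 for Elovl6 and -0.12 to 0.54 for Acacb. The causes were not tested. The median r over all pairs stayed between 0.08 and 0.14 under the alternatives. Regressing out the first component, an alternative added after seeing the data, lowered r with the oligodendrocyte mean to 0.67 for Scd2, 0.44 for Scd1 and 0.11 for Fads1. No paired analysis was possible because the labels name no litter, batch or pair. Standard errors of the genotype difference were 0.03 to 0.34 on the log2 scale, which limits what could be resolved.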
